A study of Mus musculus with 12 samples.

Results

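A set of 34 transcripts that are typical of hepatocytes was followed through 12 arrays of mouse urinary bladder. The members are plasma carriers, apolipoproteins, clotting and protease inhibitor proteins, and metabolic enzymes. They were chosen after these arrays had shown a spread in such genes between the 2 arrays of a time, so that spread is described here and not tested. The array files name 31 of them directly. The probes of Alb and Hpx carry the older names Alb1 and Hpxn and were added through their RefSeq accessions, and no probe was named Serpina1a. That left 33 measured members among 27544 names, of which 32 belonged to the 18394 names well above background on at least 4 arrays, the condition for testing. Tdo2 passed that mark on 2 arrays and was not tested, and 23 members were well above background on all 12 arrays. The samples were total RNA of urinary bladder from wild-type female C57BL/6 mice, 10 weeks old. After 2 weeks of 12 h light and 12 h dark per day the animals went into constant darkness. Tissue came from circadian time (CT) 0, 4, 8, 12, 16 and 20 h, with 2 arrays, called replicates 1 and 2, for each time. The labels do not say that an array held 1 mouse, so all p-values measure the spread between arrays.

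Hepatocytes make most of the protein of blood plasma, including albumin, fibrinogen and the lipoprotein carriers, and they hold the enzymes of the urea cycle and of amino acid and drug breakdown. The bladder wall consists of urothelium, which lines the lumen, smooth muscle, connective tissue, vessels and nerves, and it lies in fat. Markers of the labelled tissue were detected: 16 of the 16 measured urothelium genes and 12 of the 12 bladder smooth muscle genes were well above background on all 12 arrays. Of all 27544 names, 16544 passed that mark too. The share of spots well above background ran from 64.2% to 70.2% over the arrays, no spot was saturated, and the 75th percentile of signal was 844 to 984 intensity units. Levels are log2 signals with that percentile set to 0 on each array. Over all names, which are not independent replicates, r between paired arrays of a time was 0.984 to 0.993. Replicate 1 lay at position 1 or 3 of its slide and replicate 2 at position 2 or 4, and each slide held 2 neighbouring times. In bulk RNA, fewer cells of a type cannot be told apart from less RNA per cell.

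Promoters of 3 members that moved together are shown for reference. They are RefSeq windows on GRCm38.p6, from 250 bases before to 50 after the gene's start, printed 5′ to 3′ along the gene. Capitals mark GTTAAT or its reverse complement ATTAAC, a short motif known from promoters of hepatocyte genes. The first belongs to Alb, which encodes albumin, the second to Fgb, the fibrinogen beta chain, and the last to Serpina1b, an alpha-1-antitrypsin.
Alb, chr5:90460620-90460919, + strand: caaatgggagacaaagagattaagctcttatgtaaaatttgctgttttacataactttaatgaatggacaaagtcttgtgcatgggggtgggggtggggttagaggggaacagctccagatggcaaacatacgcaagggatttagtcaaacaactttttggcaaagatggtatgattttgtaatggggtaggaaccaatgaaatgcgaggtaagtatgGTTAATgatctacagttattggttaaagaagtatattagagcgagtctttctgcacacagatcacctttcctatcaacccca
Fgb, chr3:83049814-83050113, - strand: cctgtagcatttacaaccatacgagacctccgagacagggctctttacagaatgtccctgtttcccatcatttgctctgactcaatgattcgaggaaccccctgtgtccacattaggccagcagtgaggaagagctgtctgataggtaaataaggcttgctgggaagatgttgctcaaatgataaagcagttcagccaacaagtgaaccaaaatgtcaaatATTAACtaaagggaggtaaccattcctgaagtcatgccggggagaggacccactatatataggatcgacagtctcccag
Serpina1b, chr12:103738140-103738439, - strand: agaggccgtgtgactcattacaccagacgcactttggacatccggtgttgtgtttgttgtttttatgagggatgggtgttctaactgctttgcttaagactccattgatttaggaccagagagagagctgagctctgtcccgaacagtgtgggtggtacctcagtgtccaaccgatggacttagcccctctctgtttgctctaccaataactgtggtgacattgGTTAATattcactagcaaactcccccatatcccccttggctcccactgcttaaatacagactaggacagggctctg
The matches begin at positions -32, -29 and -26 from the start. In the window of F2, which is not printed, the match begins at position 8, after the start. A window was at hand for 25 of the 33 members. Of the 12 motifs searched on both strands, GTTAAT was picked for display after its matches were seen. It was found in 7 of the 22 members with a window that share the pattern described next (Alb, Fga, Fgb, Serpina1b, F2, Vtn and Gc). Of the 3 other members with a window, 1 had it (Pck1). Among all 27025 genes with a window used, 8.24% had it in at least 1 window. TGTTTGC, a form of the forkhead factors' motif, was in 7 of the 22 and in none of the 3, against 5.76% of those genes. The similar TGTTTAC was in 3 of the 22 and 1 of the 3, against 4.05%. TATAAA was in 6 of the 22 and 2 of the 3, against 15.7%. Each of the motifs searched besides these and GTTAAT was in 0 or 1 of the 22 and in 0 of the 3. TTATGTAA, a motif of PAR bZIP factors such as the clock output factor DBP, was found only in the window of Alb among the 25, and in 1.11% of the 27025 genes. These matches describe letters and not binding.

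Most members rose and fell together between the 2 arrays of a time. Alb (mm7, probe on chromosome 5, 90443687 to 90443746) stood on replicates 2 and 1 at 2.03 and -1.51 at CT0, -0.02 and -1.42 at CT4, 0.82 and 1.44 at CT8, 3.81 and 0.12 at CT12, 0.91 and -1.48 at CT16, and 4.14 and -2.17 at CT20. The 3 highest values were those of replicate 2 at CT20, CT12 and CT0, which came from 3 different slides, and the lowest was replicate 1 of CT20. As unscaled signal, Alb had 15344 intensity units on replicate 2 of CT20 and 184 on replicate 1. Replicate 2 was 79.6-fold higher than replicate 1 at CT20, 12.9-fold higher at CT12 and 11.6-fold higher at CT0, while at CT8 it was lower and the arrays differed 1.53-fold.

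To count members that shared this course, each member's deviations from its time means were correlated with the mean deviation of the other members well above background on all arrays. These are 12 values of which 6 are free, and the arrays are common to all members, so r is a description without a p. A member was said to follow at r of 0.8 or more. By that measure 26 of 33 followed, and 7 did not: Ttr, Hp, Mup1, Trf, Pck1, Cyp2e1 and Rbp4. Of all 18394 names tested, 2.00% reached the same r, a share from which nothing is read, since the members were chosen on this variation. The members nearest to the threshold were Apoc1 (r = 0.82) and Fbp1 (r = 0.85) inside it, and Ttr (r = 0.71) outside. Among the 23 members well above background on all arrays, 16 followed. The other 10 all counted as followers, and their r rests in part on values not well above background; for Fga, measured on 4 arrays, and Tdo2, on 2, it rests mostly on such values. Between pairs of those 16 the median r was 0.95 and the lowest 0.62.

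The 26 followers had a median difference, replicate 2 minus replicate 1, of 3.34 (log2) at CT0, 1.32 at CT4, -0.50 at CT8, 3.23 at CT12, 1.57 at CT16 and 5.17 at CT20. Of these 26, 10 were not well above background on some arrays, mostly on replicate 1, and their differences there run against values with only an upper bound. The 16 followers well above background on all arrays had medians of 2.25 at CT0, 0.86 at CT4, -0.41 at CT8, 3.09 at CT12, 1.42 at CT16 and 4.15 at CT20. That is 17.8-fold at CT20 for these 16. The median over all names tested lay between -0.02 and 0.02 at every time. Replicate 2 was the higher array in 24 of the 26 at CT0, 23 at CT4, 4 at CT8 and all 26 at CT12, CT16 and CT20. In 24 of the 26 the 2 highest of the 12 values were replicate 2 of CT12 and of CT20; the exceptions were Apoc1 and Fbp1. In 21 the 3 highest were those 2 and replicate 2 of CT0. In 16 the 2 arrays of CT20 held both the lowest and the highest value. Replicate number thus moved with the level at most times, and so did the position on the slide; the part of position in the result was not tested. Without the 2 arrays of CT20, 24 members followed. Without all 6 arrays of CT0, CT12 and CT20, 19 did, and Apob, Ass1, Tat, Hpd, Vtn, Tdo2 and Apoc1 no longer reached 0.8.

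**Figure D1:**
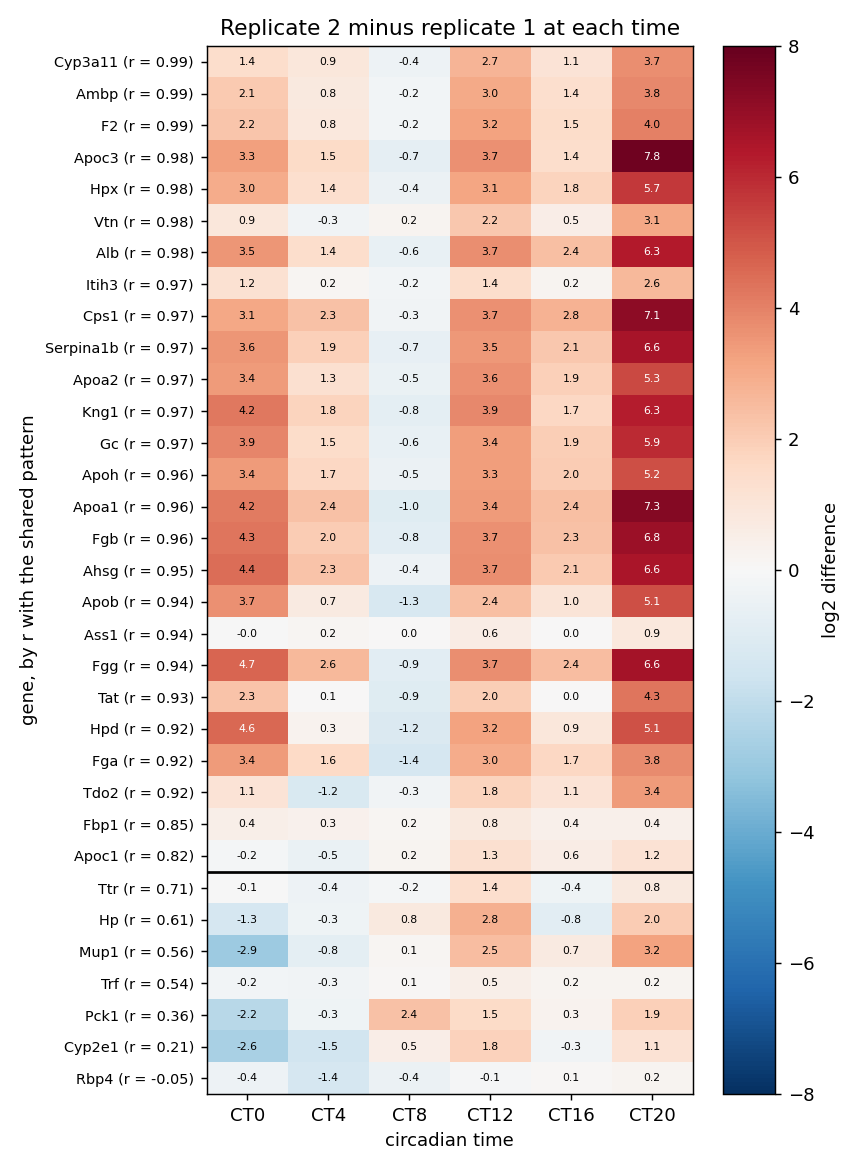
Log2 difference between the arrays of each time, replicate 2 minus replicate 1, for the 33 measured members in order of r with the shared pattern; the line parts the 26 followers from the other 7. Red cells at CT0, CT12 and CT20 run through most of the followers (medians 3.34, 3.23 and 5.17), and at CT8 the followers have a median of -0.50.

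Of the 11 carrier and acute-phase proteins, 6 followed: Alb, Ahsg, Gc, Hpx, Apoh and Ambp. Ahsg, which encodes fetuin-A, a binder of calcium phosphate in plasma, had the largest within-time SD of the group (2.68; probe on chromosome 16, 22560686 to 22560745). This SD is that between the arrays of a time, pooled over the 6 times, in log2 units. Its levels on replicates 2 and 1 were 2.45 and -2.00 at CT0, 0.03 and -2.26 at CT4, 0.82 and 1.22 at CT8, 3.37 and -0.34 at CT12, 1.04 and -1.04 at CT16, and 3.85 and -2.71 at CT20. At CT20 the 2 arrays differed 94.3-fold, at CT12 13.1-fold and at CT0 21.9-fold, and replicate 2 was the higher each time. Gc, the vitamin D binding protein (probe on chromosome 5, 89408347 to 89408876), read -2.30 and -6.23 at CT0, -3.88 and -5.35 at CT4, -3.12 and -2.56 at CT8, -0.64 and -4.00 at CT12, -3.24 and -5.19 at CT16, and -0.39 and -6.33 at CT20. It was not well above background on replicate 1 of CT0, so that value is only an upper bound, and it too was highest on replicate 2 of CT20 and CT12. Hpx encodes hemopexin, which binds free heme, and its arrays differed 50.3-fold at CT20 and 1.36-fold at CT8. Apoh, or beta-2-glycoprotein I, which binds phospholipids, differed 36.4-fold at CT20. Ambp encodes the precursor of alpha-1-microglobulin and bikunin, and its arrays differed 14.1-fold at CT20 and 8.28-fold at CT12.

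The 5 measured apolipoproteins all reached the threshold, and Apoa2 and Apoc1 were well above background on all arrays. Apoa1, the main protein of high-density lipoprotein (probe on chromosome 9, 46187961 to 46188020), had a within-time SD of 2.81. Its levels on replicates 2 and 1 were -3.09 and -7.24 at CT0, -4.65 and -7.01 at CT4, -4.14 and -3.16 at CT8, -1.53 and -4.91 at CT12, -4.07 and -6.50 at CT16, and -0.81 and -8.15 at CT20. Replicate 1 of CT0, CT4 and CT20 was not well above background, and these 3 values were the lowest; no fold is given across them, and the SD rests in part on them. Among members measured above background on all arrays the largest SD was that of Fgg, a fibrinogen chain (2.78). Apoc3, an inhibitor of lipoprotein lipase (probe on chromosome 9, 46191393 to 46191452), had -2.29 and -5.60 at CT0, -4.36 and -5.87 at CT4, -3.70 and -2.99 at CT8, -1.38 and -5.06 at CT12, -4.40 and -5.82 at CT16, and -1.15 and -8.93 at CT20, with replicate 1 of CT20 below that mark. A further probe of Apoc3 gave r = 0.99 with the shared pattern. Apoa2, the other major protein of high-density lipoprotein (probe on chromosome 1, 171195820 to 171195879), was measured above background throughout, at -0.07 and -3.50 at CT0, -2.19 and -3.45 at CT4, -1.51 and -0.9999 at CT8, 1.21 and -2.42 at CT12, -1.53 and -3.45 at CT16, and 1.27 and -4.01 at CT20. Its arrays differed 39.0-fold at CT20 and 2.40-fold at CT4. Apob, the structural protein of very-low-density lipoprotein, had r = 0.94 with levels from -7.72 to -2.58 and was not well above background on replicate 1 of CT0 and CT20. Apoc1, an apolipoprotein that macrophages also make, moved little: its within-time SD was 0.55 and its highest and lowest arrays differed 2.42-fold. Its r of 0.82 fell below 0.8 in 9 of the other settings tried, to 0.69 without CT20, and its r with the adipocyte genes described further on was 0.62.

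Of the 8 genes of clotting, kinin and protease inhibitor proteins, all reached the threshold, with r from 0.92 to 0.99, and 5 of them (Fgb, Fgg, Itih3, F2 and Vtn) were well above background on all arrays. The 3 fibrinogen chains sit next to each other on chromosome 3. Fgg, the gamma chain (probe on chromosome 3, 83119588 to 83119647), had levels on replicates 2 and 1 of 0.14 and -4.51 at CT0, -2.02 and -4.60 at CT4, -1.58 and -0.73 at CT8, 0.84 and -2.88 at CT12, -2.04 and -4.48 at CT16, and 1.35 and -5.30 at CT20. Its arrays differed 99.99-fold at CT20, with replicate 2 the higher. Fgb, the beta chain (probe on chromosome 3, 83147097 to 83147156), whose promoter is printed above, stood at 0.70 and -3.59 at CT0, -1.19 and -3.23 at CT4, -0.60 and 0.23 at CT8, 1.78 and -1.88 at CT12, -0.87 and -3.19 at CT16, and 2.24 and -4.60 at CT20. It differed 114-fold at CT20 and 1.77-fold at CT8, where replicate 1 was the higher. Fga, the alpha chain, was well above background on 4 arrays only, and those were replicate 2 of CT0, CT12 and CT20 and replicate 1 of CT8, on which it read -4.56, -3.93, -3.27 and -5.60. The lowest r of the 8, 0.92, was that of Fga. Kng1 encodes kininogen, the source of bradykinin (probe on chromosome 16, 22736150 to 22737612), and read -2.04 and -6.24 at CT0, -4.06 and -5.82 at CT4, -2.94 and -2.17 at CT8, -0.41 and -4.28 at CT12, -2.94 and -4.61 at CT16, and -0.25 and -6.56 at CT20. Replicate 1 of CT0 and of CT20 held its lowest values and was not well above background there. Serpina1b, whose probe may also read near-identical alpha-1-antitrypsin copies, was below that mark on replicate 1 of CT0, CT4 and CT20 and had r = 0.97 with levels from -6.61 to 0.0056. F2, prothrombin, had a difference of 16.2-fold at CT20 and r = 0.99. Vtn, the adhesive plasma protein vitronectin, and Itih3, a heavy chain that binds hyaluronan, differed 8.66-fold and 6.05-fold there. Vtn was also slightly lower on replicate 2 than on replicate 1 at CT4, a time at which Alb was higher on replicate 2.

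Of the 9 metabolic enzymes, 7 reached the threshold and Cyp2e1 and Pck1 did not. Of the 7, Cyp3a11, Tat, Ass1 and Fbp1 were well above background on all arrays. Cps1, which makes carbamoyl phosphate in the first step of the urea cycle (probe on chromosome 1, 67470600 to 67470659), had a within-time SD of 2.70, at -3.33 and -6.44 at CT0, -6.37 and -8.71 at CT4, -3.96 and -3.66 at CT8, -2.09 and -5.77 at CT12, -5.45 and -8.22 at CT16, and -1.07 and -8.20 at CT20 on replicates 2 and 1. It was not well above background on replicate 1 of CT0, CT4, CT16 and CT20 and on replicate 2 of CT4, so its SD rests in part on values with only an upper bound. Hpd, an enzyme of tyrosine breakdown (probe on chromosome 5, 122402761 to 122404883), read -3.44 and -8.02 at CT0, -5.91 and -6.17 at CT4, -5.11 and -3.94 at CT8, -1.97 and -5.20 at CT12, -5.28 and -6.18 at CT16, and -1.25 and -6.35 at CT20, with replicate 1 of CT0 not well above background. Tat, tyrosine aminotransferase (probe on chromosome 8, 108599439 to 108599498), read -2.23 and -4.49 at CT0, -4.09 and -4.15 at CT4, -3.40 and -2.46 at CT8, -1.73 and -3.73 at CT12, -3.70 and -3.73 at CT16, and -0.07 and -4.35 at CT20. Its within-time SD of 1.54 was the largest among the enzymes measured above background throughout. The arrays of Tat differed 19.5-fold at CT20 and 1.04-fold at CT4. Tdo2, which opens the ring of tryptophan, was well above background only on replicate 2 of CT12 and of CT20, so its r of 0.92 says little. Cyp3a11, a cytochrome P450 of drug metabolism, had the highest r of all members (0.99) and differed 6.52-fold at CT12. The remaining followers moved far less. Ass1, an enzyme of arginine synthesis, had a within-time SD of 0.31, and Fbp1, an enzyme of gluconeogenesis, of 0.32. Fbp1 was higher on replicate 2 at all 6 times, and its r was 0.79 without either array of CT12; its deviations had r = 0.76 with the mean deviation of the 16 urothelium genes.

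**Figure D2:**
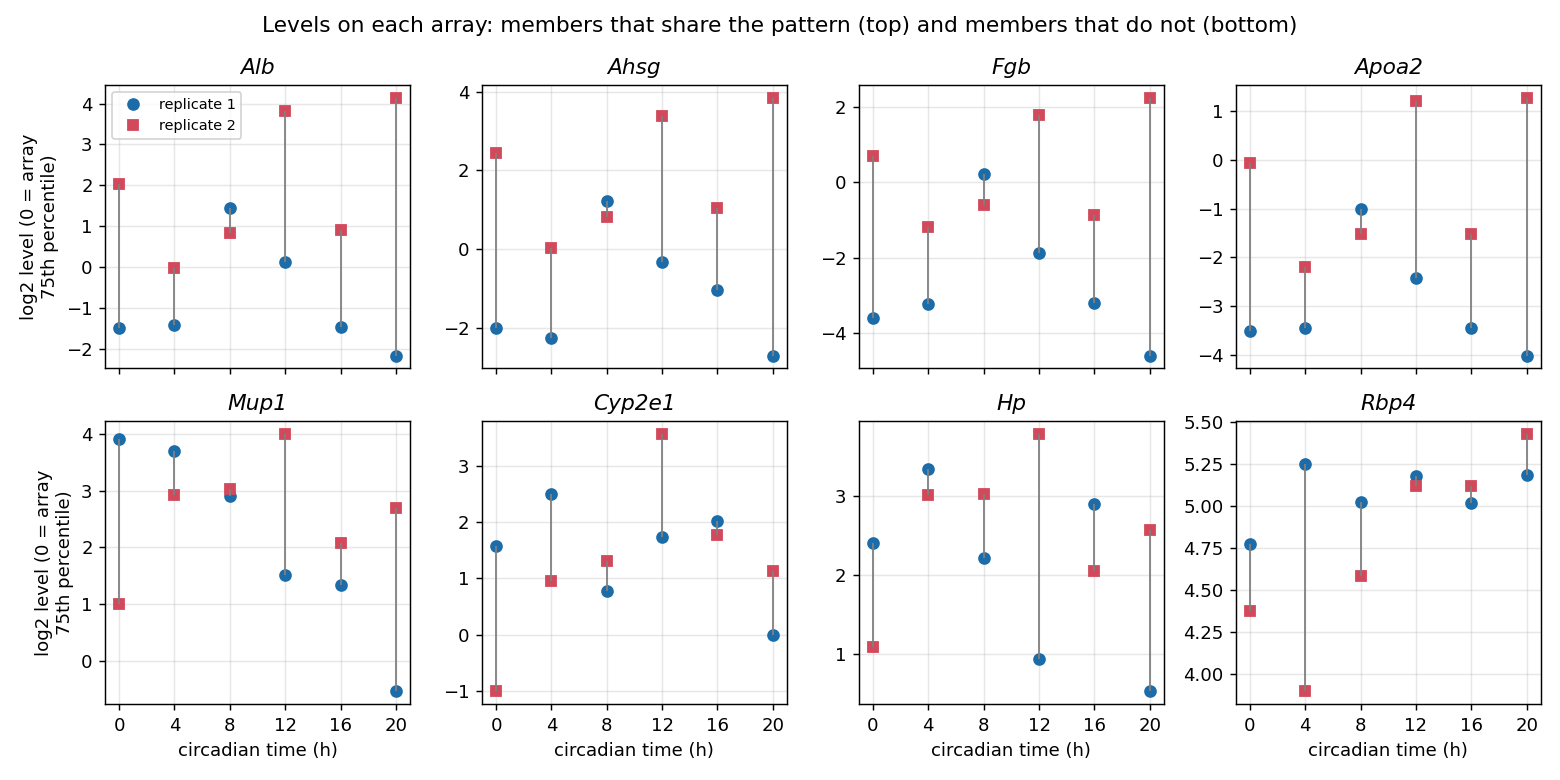
Log2 level (0 is the array's 75th percentile) against circadian time in hours for 8 members, with squares for replicate 2, circles for replicate 1 and a grey line joining the arrays of a time. Alb, Ahsg, Fgb and Apoa2 repeat the same long lines at CT0, CT12 and CT20 with replicate 2 on top; Mup1, Cyp2e1 and Hp are lower on replicate 2 at CT0, and Rbp4 has its longest line at CT4. The vertical scales differ between panels.

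The 7 members that did not follow were all well above background on all 12 arrays, and at CT0 each was lower on replicate 2, the array on which Alb was 11.6-fold higher. At CT20 they went with the followers in sign, since all 7 were higher on replicate 2. Mup1, a major urinary protein that carries pheromones (probe on chromosome 4, 60420781 to 60421004), had levels on replicates 2 and 1 of 1.01 and 3.90 at CT0, 2.92 and 3.70 at CT4, 3.04 and 2.90 at CT8, 4.00 and 1.52 at CT12, 2.07 and 1.34 at CT16, and 2.69 and -0.53 at CT20. It was 7.44-fold lower on replicate 2 at CT0. Its 3 probes had r of 0.43 to 0.56, and they may read several near-identical Mup genes. Without either array of CT0 the r of Mup1 was 0.95, so its place among these 7 rests on that time. Cyp2e1, a cytochrome P450 that oxidizes ethanol (probe on chromosome 7, 137190949 to 137191008), read -1.01 and 1.57 at CT0, 0.96 and 2.50 at CT4, 1.32 and 0.78 at CT8, 3.58 and 1.73 at CT12, 1.77 and 2.02 at CT16, and 1.13 and -0.00049 at CT20. Replicate 2 was lower at CT0, CT4 and CT16 and higher at CT8, CT12 and CT20. Hp, the hemoglobin binder haptoglobin (probe on chromosome 8, 108175404 to 108175463), was measured at 1.08 and 2.41 at CT0, 3.01 and 3.34 at CT4, 3.02 and 2.21 at CT8, 3.79 and 0.94 at CT12, 2.05 and 2.89 at CT16, and 2.57 and 0.53 at CT20. Its highest array was replicate 2 of CT12 and its lowest replicate 1 of CT20. For Pck1, the enzyme that commits carbon to gluconeogenesis and in fat to glycerol synthesis (probe on chromosome 2, 172903552 to 172903615), the levels were -0.77 and 1.42 at CT0, 0.68 and 1.01 at CT4, 1.43 and -0.92 at CT8, 2.66 and 1.14 at CT12, -1.32 and -1.60 at CT16, and 0.54 and -1.34 at CT20. At CT8 its replicate 2 was 5.13-fold higher, where the followers had a median difference of -0.50 (log2).

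The other three of these members varied less. Rbp4, the carrier of retinol, which fat also secretes (probe on chromosome 19, 37817322 to 37817381), stood at 4.38 and 4.77 at CT0, 3.89 and 5.25 at CT4, 4.58 and 5.02 at CT8, 5.12 and 5.18 at CT12, 5.12 and 5.02 at CT16, and 5.43 and 5.18 at CT20. Its largest gap was at CT4, where replicate 2 was 2.56-fold lower, and at CT12 and CT16 its arrays were nearly level. Trf, the iron carrier transferrin (probe on chromosome 9, 102929342 to 102929957), was at 3.37 and 3.61 at CT0, 3.69 and 3.98 at CT4, 3.56 and 3.45 at CT8, 3.85 and 3.38 at CT12, 3.71 and 3.48 at CT16, and 3.94 and 3.70 at CT20 and had the smallest within-time SD of all members (0.20). Ttr encodes transthyretin, a carrier of thyroid hormone, and read -4.80 and -4.75 at CT0, -3.66 and -3.27 at CT4, -3.49 and -3.32 at CT8, -3.68 and -5.04 at CT12, -3.83 and -3.46 at CT16, and -2.62 and -3.39 at CT20. Both of its CT0 arrays were low, and replicate 1 of CT12 was lower still.

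The 7 also moved with genes of fat. Except for Rbp4, they moved with genes of urothelium and against those of smooth muscle. Against the mean deviation of 16 adipocyte genes, a list chosen with earlier results of these arrays known, r was 0.98 for Cyp2e1, 0.84 for Mup1, 0.81 for Trf, 0.76 for Pck1, 0.71 for Hp, 0.64 for Rbp4 and 0.55 for Ttr. For Alb it was -0.03, and for the shared pattern 0.14. The followers ran from -0.20 for Fga to 0.62 for Apoc1, which lies above Ttr. Only in Ttr among the 7 was r with the shared pattern larger than r with the adipocyte genes. Against the mean deviation of the 12 bladder smooth muscle genes r was -0.87 for Pck1, -0.77 for Hp, -0.75 for Cyp2e1, -0.66 for Mup1, -0.61 for Trf, -0.45 for Ttr and 0.13 for Rbp4. In Pck1 and Hp this was larger in size than r with the adipocyte genes. Against the 16 urothelium genes it was 0.73 for Trf, 0.68 for Mup1, 0.60 for Hp and Pck1, 0.49 for Ttr, 0.46 for Cyp2e1 and -0.16 for Rbp4. Followers had urothelium r from 0.34 for Tat to 0.76 for Fbp1, with 0.57 for Alb, so this r does not set the 7 apart. With smooth muscle the followers ran from -0.47 for Apoc1 to 0.16 for Hpd, with -0.02 for Alb. Among pairs of the 7 the median r was 0.75, from 0.11 to 0.89. All 18 adipocyte genes on the list had a probe and were tested, and none reached r of 0.8 with the shared pattern. The summed adipocyte level was lowest on replicate 2 of CT0 (357, in units of the 75th percentile) and highest on replicate 1 of CT4 (1070), arrays on which Alb had its rank 3 and its rank 9 of 12. The part of fat, muscle or urothelium in the course of the 7 members was not tested.

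**Figure D3:**
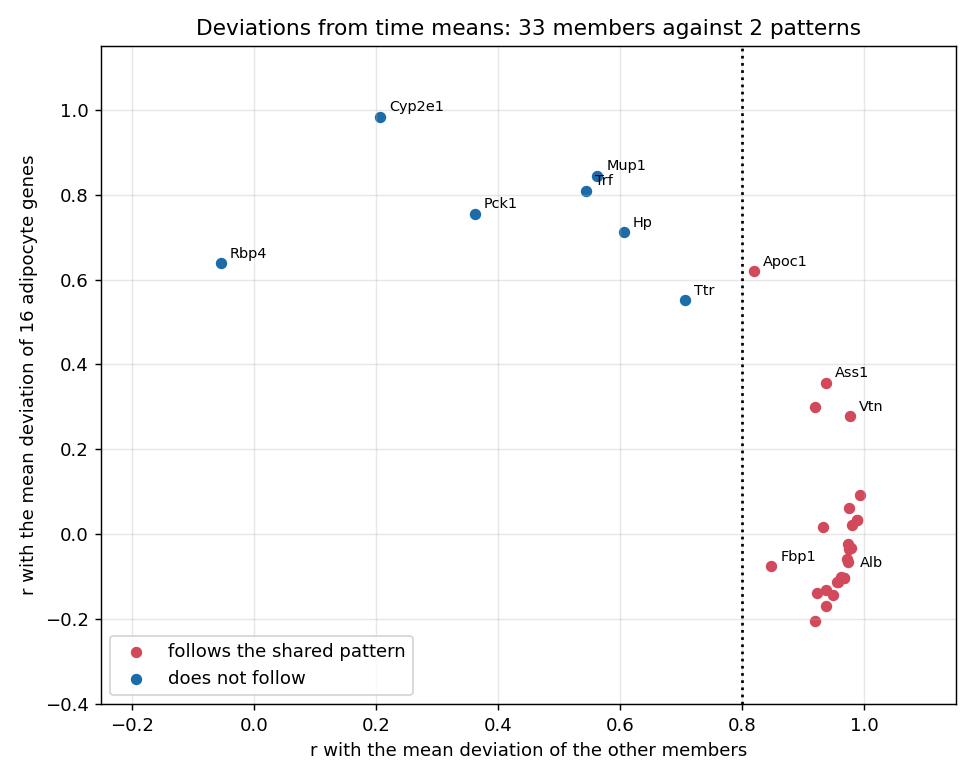
Correlation of each member's deviations from its time means with the mean deviation of the other members (horizontal) and of 16 adipocyte genes (vertical), over 12 arrays; the dotted line is the threshold of 0.8. The 7 members that do not follow lie at 0.55 to 0.98 on the vertical axis, and Alb lies at -0.03. The followers run from -0.20 to 0.62 (Apoc1).

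The spread between arrays was large beside that of other names. The median within-time SD was 1.70 for the 33 measured members, 2.16 for the followers and 1.08 for the 7 others, against 0.16 for all names tested. It was 1.45 for the 23 members well above background on all arrays and 1.65 for the 16 followers among them. Of the 389 names with an SD of at least 1, 25 were members, and of the 80 with at least 2, 15 were. For some of these members, such as Apoa1 and Cps1, the SD rests in part on values not well above background. The members were chosen on this spread, so nothing is read from these counts. The size of the spread depends on the processing. With a normexp background correction the members' median SD was 1.105, and in the authors' deposited value table, which held 31 of them, it was 1.12. Outside the members, and among names well above background on all 12 arrays with a within-time SD of at least 0.5, the 10 most like the shared pattern by r were Pipox, Cyp2b9, Cyp2a4, Hamp2, Cyp2a5, Hc, Rgn, Cyp2c70, Sec14l4 and a transcript without a gene name, with r from 0.982 to 0.995. Cyp2b9, Cyp2a4, Cyp2a5 and Cyp2c70 are cytochromes P450, Hamp2 is a hepcidin, Hc encodes complement C5, and Rgn encodes regucalcin. Pipox, an oxidase of pipecolic acid and sarcosine, had levels on replicates 2 and 1 of -2.57 and -4.31 at CT0, -4.04 and -4.41 at CT4, -3.26 and -3.30 at CT8, -1.78 and -4.27 at CT12, -3.61 and -4.45 at CT16, and -1.53 and -5.31 at CT20. Replicate 2 of CT20 and of CT12 held its 2 highest values, as in Alb. Cyp2a5 had -0.93 and -4.05 at CT0, -3.34 and -4.47 at CT4, -0.88 and -0.94 at CT8, 1.82 and -1.85 at CT12, -0.70 and -2.78 at CT16, and 1.69 and -4.91 at CT20, and its 2 highest values were on the same arrays.

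A list of further hepatocyte genes, which the members' rule had not named, gave 144 genes with a probe and 121 tested. Like the adipocyte list, it was chosen with earlier results of these arrays known. Of the 121, 79 (65.29%) had r of at least 0.8 with the shared pattern, and 66 (54.55%) had a within-time SD of at least 1, against 2.00% and 2.115% of all names. Of the 81 well above background on every array, 46 reached that r. The SD and r of the other tested genes rest in part on values with only an upper bound. The share with an SD of at least 1 includes those genes. The highest were Pipox, Cyp2a5 and Cyp2a4. The lowest were Serpinf1, Cyp27a1 and Aox3, with r of -0.69, -0.43 and -0.27. Serpinf1, an antiangiogenic factor also made by fibroblasts and fat, stood at 4.29 and 4.46 at CT0, 3.95 and 4.12 at CT4, 4.21 and 4.11 at CT8, 4.61 and 4.63 at CT12, 3.81 and 4.22 at CT16, and 3.88 and 4.18 at CT20, a narrow range. Cyp27a1, a sterol hydroxylase, had a within-time SD of 0.25, and Aox3, an aldehyde oxidase, of 0.15.

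**Figure D4:**
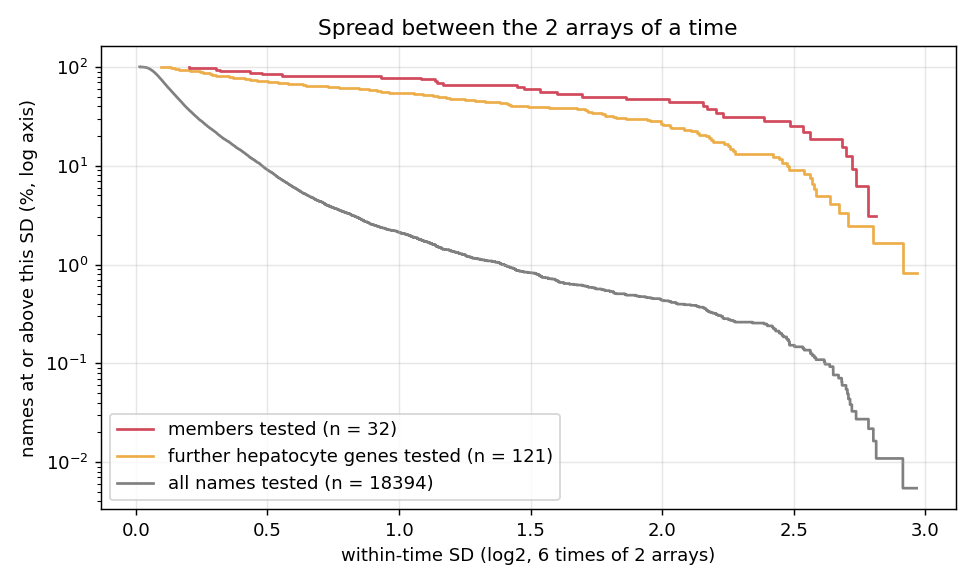
Share of names (percent, log axis) whose within-time SD is at or above the value on the horizontal axis (log2), for the 32 members tested, 121 further hepatocyte genes tested and all 18394 names tested. Members and further hepatocyte genes lie far to the right of all names, whose median is 0.16. Genes not well above background on some arrays are included.

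Few markers of other cell types reached the threshold of the shared pattern, and few of all names tested did (2.00%). With lists this short the counts cannot be told apart from that share, so nothing is read from them. Of the tested genes, r of 0.8 or more was reached by 0 of 11 for kidney tubule, 0 of 7 for exocrine pancreas and 0 of 7 for bile duct. It was reached by 0 of 21 for skeletal muscle, 0 of 8 for cardiac muscle, 0 of 15 for leukocytes and 0 of 14 for autonomic neurons. For the female reproductive tract it was 0 of 8 and for bladder smooth muscle 0 of 12. In the small intestine list 1 of 11 did (Fabp2), among red blood cell genes 1 of 3 (Alas2, r = 0.83, with Slc4a1 at 0.76 and Hba-a1 at 0.69), and in the urothelium list 1 of 16 (Snx31). The summed kidney tubule level was 1.66 to 2.85 and the exocrine pancreas level 3.80 to 5.52 over the arrays, in units of the 75th percentile, and 10 of 22 and 7 of 17 of the genes with a probe were well above background on no array. Urothelium summed to 1118 to 1615 and was highest on replicate 2 of CT20, and Alb had r = 0.57 with that list. The next highest sum was 1589 on replicate 1 of CT20, where Alb was at its lowest. On replicate 2 of CT12, where Alb had rank 2 of 12, the urothelium sum was 1333. The 3 tested red blood cell genes were all higher on replicate 2 at CT0, CT12 and CT20, and their list's summed level ran from 17.6 to 37.6. The part of these tissues and of blood was not tested.

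No member's levels differed between times past the threshold of either test over all times. Alb averaged 0.26 ± 2.50 at CT0, -0.72 ± 0.99 at CT4, 1.13 ± 0.43 at CT8, 1.96 ± 2.61 at CT12, -0.29 ± 1.69 at CT16 and 0.98 ± 4.47 at CT20 (SD, n = 2 arrays at each time). A 24 h wave fitted in limma to all names gave Alb an amplitude of 0.67 ± 0.82 (log2, SE), with an adjusted p of 0.863. In all, 0 of 32 passed an adjusted p of 0.05 for a 24 h wave, where 0.636% of all names did, and 0 had an unadjusted p under 0.05, where 15.6% of all names did. The members were chosen on the spread between the arrays of a time, which is part of the error in this test and in those below. That choice alone made few calls likely, so nothing is read from the members' counts beside those of all names. The lowest adjusted p, 0.411 in limma, belonged to Rbp4, whose wave had an amplitude of 0.35 ± 0.15 (SE). Rbp4 averaged 4.57 ± 0.28 at CT0, 4.57 ± 0.96 at CT4, 4.80 ± 0.31 at CT8, 5.15 ± 0.04 at CT12, 5.07 ± 0.07 at CT16 and 5.31 ± 0.18 at CT20 (SD, n = 2 arrays at each time).

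A limma F-test for any difference between the 6 times also called 0 of 32 members, against 0.0979% of all names. At an unadjusted p under 0.05 it found 1 member, against 19.1% of all names. That member was Ttr, with an unadjusted p of 0.0265 and an adjusted p of 0.219 in limma. Its means were -4.77 ± 0.04 at CT0, -3.46 ± 0.28 at CT4, -3.41 ± 0.11 at CT8, -4.36 ± 0.96 at CT12, -3.65 ± 0.26 at CT16 and -3.01 ± 0.54 at CT20 (SD, n = 2 arrays at each time). Neighbouring times on 1 slide gave 0 members each for CT4 minus CT0, CT12 minus CT8 and CT20 minus CT16, against 0.00544%, 0% and 0.00544% of all names. At an unadjusted p under 0.05 these were 1, 0 and 0 members, against 1688, 2396 and 2627 of the 18394 names. Without the 3 arrays with the highest Alb level, a choice made after seeing the data, 0 members were called by either test. At an unadjusted p under 0.05 there were 19 members for the wave and 9 for any difference, from which nothing is read, since the arrays were left out for the members' own levels. A wave smaller than the spread between arrays was not detectable with 2 arrays at each time.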

How the data were processed

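Total RNA of urinary bladder was measured on Agilent 1-colour (Cy3) arrays. The deposited files hold spot intensity from Agilent Feature Extraction 10.5.1.1, per the file headers. Their other columns include raw signal, background, probe names, positions and marks per spot. Log2 values of 27883 probes are in a deposited table of the authors; the submitters' processing notes name R 2.8.1, and its normalization is not given in the sources used here.

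Spots marked as outliers were dropped, log2 processed signals of 43379 spots were averaged per probe, and each array's 75th percentile was subtracted. For 271 probes a value was missing on some array, and they were left out. Names came from RefSeq (GRCm38.p6) by accession, symbol or synonym; 8455 probes kept the name in the files. After that, the probe of highest mean stood for each name. Probe positions are those of the files, on mm7, and were not placed in exons. A 24 h harmonic fit and a 1-way fit were made in limma 3.58.1 (R 4.3.3) over 18394 names, with Benjamini-Hochberg adjustment over all of them and a threshold of 0.05. Correlations were computed in Python 3.11.15 (numpy 2.4.6). Both were checked on simulated data. The members, the gene lists and the tests were chosen with earlier results of these data known. Values on every array are given for the 3 members of each role with the largest within-time SD and for members that do not follow; others named are the 10 most alike and the 3 highest and lowest further hepatocyte genes, and Fabp2, the red blood cell genes and Snx31 were named after their values were seen. Alternatives covered background, scaling, the authors' table, filters, probes, slide, replicate number and left-out arrays. The number of arrays limits the precision.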

Additional observations from a re-analysis of the deposited data

How the results depend on the processing

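In every alternative that was run, 0 members passed the threshold: 25 for the 24 h wave, 24 for any difference between times and 8 for the contrasts within slides. The choice of the members on their spread between arrays made few calls likely in these alternatives too. The lowest adjusted p of a member in limma ranged from 0.129 to 0.621 for the wave and from 0.149 to 0.375 for any difference. Over all names the calls ran from 7 to 174 for the wave, against 117, and from 0 to 120 for any difference, against 18. Slide as a fixed block gave 7 and 2 names. Slide as a random block gave 33 names for the wave, and it could not be fitted for any difference, because each time lies on 1 slide. Members that followed numbered 24 to 27 when an array was left out, which removes its time from the deviations. They numbered 27 at r of 0.7, 24 at 0.9, 25 by Spearman rank, 25 with quantile scaling, 24 of 31 in the authors' table, and, with settings chosen after seeing the data, 25 against Alb alone and 19 of 33 without CT0, CT12 and CT20. The median within-time SD was 1.36 to 1.86 with an array left out, 1.105 with normexp and 1.12 in the authors' table, against 1.70; the cause was not tested. Replicate numbers were not taken as pairs: between times, replicate differences over all names correlated at r = -0.20 to 0.44 in 15 pairs of times (median 0.17), 10 of them over 0.1 and the other 5 not. With the replicate block, 0 members and 99 names had a wave, and 0 members and 24 names differed between times. Dim signals limit 10 of the members, which were not well above background on some arrays.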

Other observations

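A further major urinary protein gene went with the 26 followers while Mup1 did not; it was picked after its values were seen. Mup3 had r = 0.98 with the shared pattern, and its levels on replicates 2 and 1 were 0.22 and -3.06 at CT0, -1.63 and -2.25 at CT4, -0.35 and -0.27 at CT8, 1.48 and -1.75 at CT12, -0.63 and -2.31 at CT16, and 0.63 and -4.20 at CT20. At CT0 replicate 2 of Mup3 was 3.28 (log2) above replicate 1, where for Mup1 the difference was -2.90. The Mup genes are near-identical, so which copies each probe reads is uncertain.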
